A study of Mus musculus with 4 samples.

Results

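The fatty acid desaturases and elongases of mouse liver were described here as 10 genes of the SCD, FADS and ELOVL families: Scd1, Scd2, Fads1, Fads2, Fads3, Elovl1, Elovl2, Elovl3, Elovl5 and Elovl6. They were taken by gene symbol from a deposited table of 33170 transcript rows and 23920 genes, and the 12 rows of these genes were summed to 1 value per gene. The unit is FPKM, a fragment number scaled by transcript length and by library size, so levels of different genes can be set side by side per length. All libraries came from livers of male C57BL/6 mice aged 12 weeks that were refed for 12 h after a fast of 24 h, a feeding regime in which fatty acid synthesis normally runs high. The 2 wild-type libraries carry the genotype SREBP1c WT and the 2 knockout libraries the genotype SREBP1c KO, called WT and KO here. The construction of the knockout allele, the origin of the WT animals as littermates and any pooling of animals are not stated in the labels.

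Desaturases place a double bond into a fatty acyl-CoA, and elongases catalyse the first, rate-limiting step by which malonyl-CoA lengthens it. In liver, stearoyl-CoA desaturase and ELOVL6 turn newly made palmitate into stearate, palmitoleate and oleate, whereas FADS1, FADS2, ELOVL2 and ELOVL5 build arachidonate and docosahexaenoate from essential dietary precursors. SREBP-1c, encoded by Srebf1, is known as a transcriptional activator of both branches. The genes were accordingly read in 2 classes by the usual substrates of their enzymes: 5 saturated and monounsaturated enzymes (Scd1, Scd2, Elovl1, Elovl3, Elovl6) and 4 polyunsaturated enzymes (Fads1, Fads2, Elovl2, Elovl5), with Fads3 in neither.

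Of the 10 genes, 6 lie on chromosome 19. Fads3 (chromosome 19, 10040855 to 10060113, mm10) ends 2651 bases before Fads2 (10062765 to 10101503), and Fads1 (10182877 to 10196874) follows 81373 bases further on. Scd2 (44293676 to 44306864) and Scd1 (44394450 to 44407709) stand 87585 bases apart, with Scd3 and Scd4 as further copies in the same cluster, and Elovl3 lies at 46131897 to 46135694. Elovl6 is on chromosome 3, Elovl1 on chromosome 4, Elovl5 on chromosome 9 and Elovl2 on chromosome 13.

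The Scd copies are similar enough to bear on how fragments were assigned to them, which is why a coding stretch of each is shown. The coding sequences of Scd1 and Scd2 were 89.6% identical, and their longest unbroken shared run was 147 bases. Those of Scd1 and Scd3 were 90.4% identical. The lines give the run of 147 bases with the bases around it, 5′ to 3′, from coding base 515 to 677 of Scd1. The aligned bases of the other copies follow (GENCODE M21 transcripts, GRCm38). Capitals mark bases that differ from Scd1.
Scd1: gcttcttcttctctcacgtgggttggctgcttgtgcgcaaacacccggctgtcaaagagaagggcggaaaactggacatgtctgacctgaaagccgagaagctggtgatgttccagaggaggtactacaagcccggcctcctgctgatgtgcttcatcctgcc
Scd2: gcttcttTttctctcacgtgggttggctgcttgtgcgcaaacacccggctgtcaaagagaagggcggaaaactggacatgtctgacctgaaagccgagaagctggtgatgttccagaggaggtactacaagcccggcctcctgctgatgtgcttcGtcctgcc
Scd3: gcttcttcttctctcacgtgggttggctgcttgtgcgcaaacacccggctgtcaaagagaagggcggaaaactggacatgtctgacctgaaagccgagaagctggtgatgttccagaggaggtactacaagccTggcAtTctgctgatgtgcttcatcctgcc
Scd4: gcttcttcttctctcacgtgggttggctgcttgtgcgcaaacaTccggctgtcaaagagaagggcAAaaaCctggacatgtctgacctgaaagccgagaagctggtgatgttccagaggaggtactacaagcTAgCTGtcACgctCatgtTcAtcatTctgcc
Scd2 differed from Scd1 at 2 bases of this stretch, Scd3 at 3 and Scd4 at 15. Over whole transcripts, 3.03% of the 50-base windows of Scd1 also occurred in Scd2 and 3.49% in Scd3, whereas Fads1 shared 0 of its windows with Fads2 or Fads3. A fragment that falls wholly inside a shared run cannot be assigned to 1 copy by its bases. How the authors treated such fragments is not stated in the labels.

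The promoter table of RefSeq (GRCm38.p6) held 6 of the 10 genes: Elovl1, Elovl2, Elovl5, Elovl6, Fads2 and Fads3. Elovl6 and Elovl5 are elongases with different substrates, and the values of each overlapped between the genotypes. They are shown with the 250 bases before their annotated start sites, at chr3:129532136-129532385 and chr9:77917115-77917364, both on the plus strand.
Elovl6: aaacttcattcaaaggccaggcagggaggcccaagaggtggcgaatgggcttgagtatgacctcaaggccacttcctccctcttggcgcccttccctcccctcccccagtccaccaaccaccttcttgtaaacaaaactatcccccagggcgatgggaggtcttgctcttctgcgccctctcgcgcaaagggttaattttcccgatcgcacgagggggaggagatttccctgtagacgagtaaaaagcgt
Elovl5: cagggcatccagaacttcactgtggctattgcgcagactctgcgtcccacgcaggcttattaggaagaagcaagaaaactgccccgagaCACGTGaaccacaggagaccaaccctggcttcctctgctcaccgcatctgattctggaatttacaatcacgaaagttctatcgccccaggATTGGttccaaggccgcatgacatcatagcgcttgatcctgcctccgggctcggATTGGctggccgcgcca
Capitals mark matches, on either strand, to the E-box CACGTG and the NF-Y box CCAAT. A core of the sterol response element, TCACNCCAC, was searched for as well, and none of the motifs overlapped another in these stretches. Elovl5 held 1 E-box starting 161 bases before the start site and 2 NF-Y boxes starting 71 and 17 bases before it, and Elovl6 held none of the 3 motifs in this window. Among the other genes with an entry, Elovl1 held 1 NF-Y box and Fads3 held 2, and Elovl2 and Fads2 held none of the 3 motifs. A relation between these motifs and the values in KO was not tested. Of all 32851 promoter windows of this length, 6.02% held CACGTG, 33.8% held CCAAT and 1.05% held TCACNCCAC. The sterol element core had no match in any member window, which says only that these letters are not there.

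The tests ran over all 9820 genes with a mean of at least 1 FPKM, and all 10 genes passed that filter. Fads3 passed it only through KO replicate 1. Srebf1, the targeted gene, had 63.7 and 58.2 FPKM in WT against 8.63 and 6.97 FPKM in KO (log2 difference −2.82, limma adjusted p = 0.00172), on a single row that does not separate SREBP-1c from SREBP-1a. Steps between low FPKM values implied 20.7 to 22.8 M (mega) fragments per library. At this depth Scd1 rests on about 9220 to 32029 fragments, the polyunsaturated enzymes on about 4014 to 7902, Scd2 on about 110 to 196 and Fads3 on about 63 to 149. Of 8 hepatocyte markers 7 were measured in every library and 0 passed, with 4 negative and 3 positive log2 differences, while Alb was listed at 0 in all 4. Cps1, which starts the urea cycle, was the marker that differed most, at 619.5 and 621 FPKM in WT against 362 and 399.6 FPKM in KO (limma adjusted p = 0.246). Pancreatic acinar markers were listed at 0. KO replicate 2 stood apart in the sum of its 15 acute phase genes. That sum was 10490 and 12720 FPKM in WT, 8597 in KO replicate 1 and 23740 in KO replicate 2. All 15 had a positive log2 difference, where 45.4% of all genes were negative. Both KO libraries lay above both WT libraries for 5 of the 15, against 22.4% of all genes.

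In the knockout livers Scd1 had the largest log2 difference of the 10 genes, and it was negative. Scd1 encodes the main hepatic stearoyl-CoA desaturase, which makes oleate and palmitoleate. It had 291 and 149 FPKM in WT livers against 102 and 92.2 FPKM in KO livers. Both KO libraries lay below both WT libraries, and the WT libraries were further from each other than the KO libraries were. The means were 219.9 ± 100.1 FPKM for WT against 97.2 ± 7.12 FPKM for KO (SD, n = 2 per genotype), 2.26 times as high in WT. Among the 4 possible pairs of a KO with a WT library, the KO level was 0.317 to 0.685 of the WT level. The log2 difference, the mean log2(FPKM + 1) of KO less that of WT, was −1.09 (SE 0.30, interval of 95% from −1.83 to −0.36). Its unadjusted limma p was 0.0110 and its adjusted p over all genes was 0.465, so Scd1 did not pass the threshold of 0.05. Leaving out WT replicate 1 gave −0.61 and leaving out WT replicate 2 gave −1.57, and leaving out KO replicates 1 and 2 gave −1.17 and −1.02. In bulk tissue a single gene does not separate fewer cells from less RNA per cell. Beside Scd1, the 7 hepatocyte markers tested had a median log2 difference of −0.11: Ttr −0.11, Apoa1 −0.13, Serpina1c −0.18, Asgr1 0.00, Hnf4a 0.21, Tat 0.35 and Cps1 −0.70. Scd1 held place 401 of 9820 by mean WT level and place 792 by mean KO level.

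Elovl6, whose enzyme lengthens palmitate to stearate, had 35.6 and 17.6 FPKM in WT against 22.5 and 7.94 FPKM in KO. The groups overlapped, since KO replicate 1 was above WT replicate 2, and KO replicate 2 was lowest. WT replicate 1 was 2.02 times as high as WT replicate 2, and KO replicate 1 was 2.83 times as high as KO replicate 2. The mean was 1.75 times as high in WT as in KO. The log2 difference was −0.85 (SE 0.50, interval from −2.08 to 0.38, limma adjusted p = 0.733), which was within the spread of the libraries. Leaving out KO replicate 1 gave −1.54 and leaving out KO replicate 2 gave −0.15, so 1 library decides its size. The limma adjusted p without KO replicate 1 was 0.0416, in a fit where 1 KO library is assumed to vary like the 2 WT libraries and which called 137 genes lower and 169 higher, against 6 and 1 with all libraries. Leaving out WT replicate 1 gave −0.36 and leaving out WT replicate 2 gave −1.34.

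Elovl3, which makes very long saturated and monounsaturated chains, was the most abundant of the 10 genes and held place 252 by mean WT level. It had 373 and 312 FPKM in WT against 417 and 229 FPKM in KO. The KO libraries enclosed the WT libraries, with KO replicate 1 the highest of the 4 and KO replicate 2 the lowest. The log2 difference of −0.14 (interval from −0.84 to 0.56, limma adjusted p = 0.928) turned to 0.29 without KO replicate 2 and was −0.57 without KO replicate 1.

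Elovl1, an elongase of very long saturated chains used in sphingolipids, was the only saturated or monounsaturated enzyme with both KO libraries above both WT libraries. It had 23.8 and 20.3 FPKM in WT against 32.9 and 24.99 FPKM in KO. The highest WT and the lowest KO library were close, at a ratio of 1.05. Its log2 difference was 0.37 (SE 0.16, interval from −0.02 to 0.77, limma adjusted p = 0.644). It was 0.48 and 0.26 without WT replicates 1 and 2, and 0.18 and 0.56 without KO replicates 1 and 2. Elovl1 has 3 transcript rows, and NM_019422 carried most of the sum, with 21.2 and 17.5 FPKM in WT against 29.0 and 21.9 FPKM in KO. The row NM_001039176 was also above WT in both KO libraries, with 2.01 and 1.63 FPKM in WT against 3.58 and 2.90 FPKM in KO. The row NM_001039175 went the other way, with 0.61 and 1.09 FPKM in WT against 0.37 and 0.19 FPKM in KO, on about 5 to 28 fragments. How the authors' program shared fragments between these rows was not tested.

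Scd2, the stearoyl-CoA desaturase best known from brain and from the liver of newborn mice, was near the lower limit of the genes tested. It had 1.57 and 1.07 FPKM in WT against 1.55 and 0.98 FPKM in KO, with the groups overlapping. A log2 difference of −0.04 was measured (interval from −0.47 to 0.39, limma adjusted p = 0.973), on a scale that understates changes of low genes. Its sign turned with 1 library left out, to 0.12 without WT replicate 1 and to 0.14 without KO replicate 2.

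**Figure D1:**
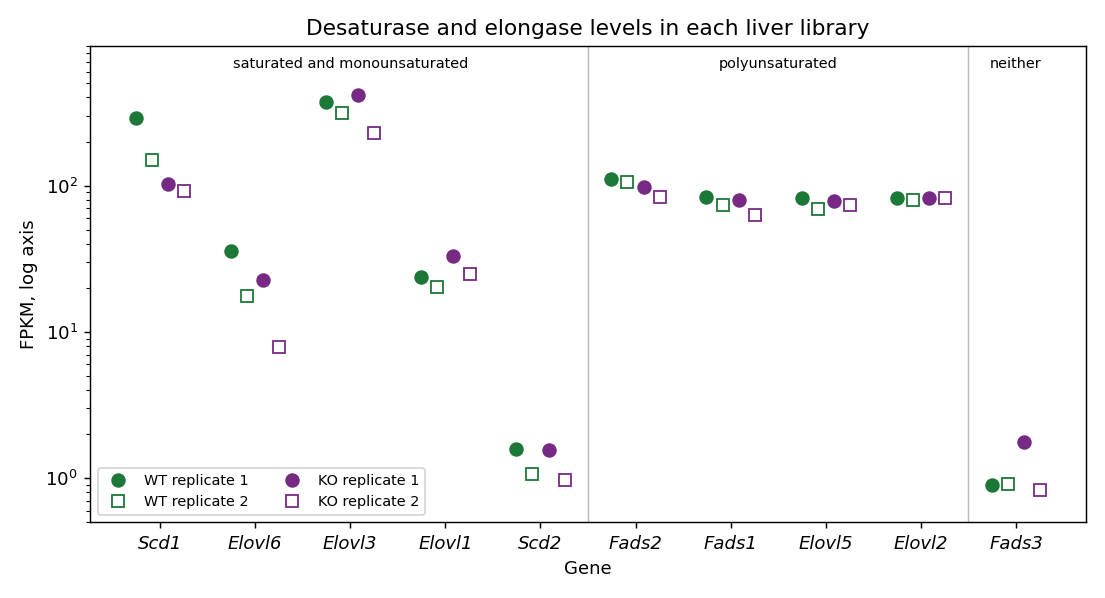
FPKM on a log axis for each of the 10 genes, with 1 point per library (green WT, purple KO, filled circle replicate 1, open square replicate 2). Scd1 shows both KO points below both WT points, while the 4 polyunsaturated enzymes lie between 63.4 and 110.0 FPKM in all 4 libraries.

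The polyunsaturated enzymes lay between 63.4 and 110.0 FPKM in all 4 libraries, and none of their log2 differences was beyond −0.25. Fads2 encodes the desaturase that acts first on linoleate and alpha-linolenate. It had 110.0 and 106 FPKM in WT against 97.9 and 83.8 FPKM in KO. Both KO libraries were below both WT libraries, at 0.762 to 0.926 of the WT level over the 4 pairs. For Fads2 this gave a log2 difference of −0.25 (SE 0.12, interval from −0.55 to 0.05, limma adjusted p = 0.685). It was −0.22 and −0.28 without WT replicates 1 and 2, and −0.36 and −0.14 without KO replicates 1 and 2.

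Fads1, whose enzyme completes arachidonate and eicosapentaenoate, had 83.9 and 73.5 FPKM in WT against 79.2 and 63.4 FPKM in KO. The groups overlapped, with KO replicate 2 lowest. Fads1 had a log2 difference of −0.15 (interval from −0.51 to 0.21, limma adjusted p = 0.849) and turned to 0.01 without KO replicate 2. Within each library the ratio of Fads1 to Fads2 was 0.763 and 0.695 in WT against 0.808 and 0.756 in KO, with the groups overlapping.

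Elovl5, which lengthens the first products of FADS2, had 81.6 and 69.4 FPKM in WT against 78.2 and 73.9 FPKM in KO. The KO libraries lay between the WT libraries. Its log2 difference was 0.01, with an interval from −0.29 to 0.32 (limma adjusted p = 0.986).

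Elovl2, which leads to docosahexaenoate, was the steadiest of the 10 genes over the 4 libraries. It had 81.9 and 79.9 FPKM in WT against 82.5 and 82.2 FPKM in KO. Both KO libraries were above both WT libraries at 1.004 to 1.03 of the WT level, and the log2 difference was 0.03 (interval from −0.23 to 0.28, limma adjusted p = 0.969). The intervals of Elovl2, Elovl5, Fads1 and Fads2 all stayed within 1 log2 unit of 0, which leaves room for smaller changes in either direction. The same held for Scd2, Elovl1, Elovl3 and Fads3, so for 8 of the 10 genes.

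Fads3, a member known for desaturating sphingoid bases, had 0.90 and 0.92 FPKM in WT against 1.77 and 0.83 FPKM in KO. KO replicate 1 was high, at about 149 fragments against 63 to 76 in the other libraries, and KO replicate 2 was the lowest of the 4. Only KO replicate 1 was above 1 FPKM, so Fads3 passed the filter of a mean of at least 1 FPKM through that library. The log2 difference was 0.24 (interval from −0.26 to 0.73, limma adjusted p = 0.816) and −0.06 without KO replicate 1.

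**Figure D2:**
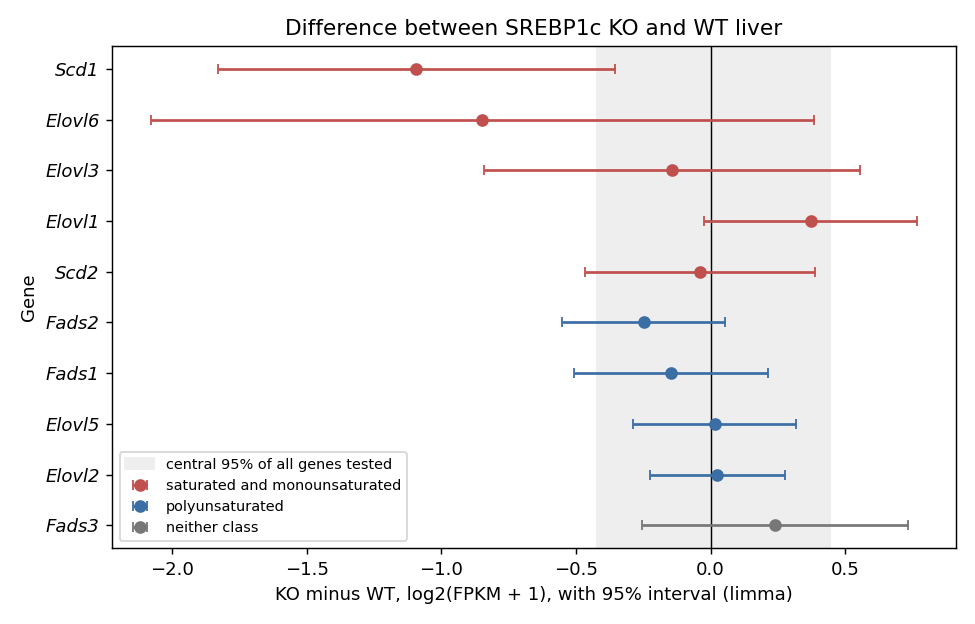
Log2 difference, the mean log2(FPKM + 1) of KO less that of WT, for each gene with its interval of 95% from limma, coloured by enzyme class. The grey band spans the central 95% of the 9820 genes tested, from −0.42 to 0.45, and the points of Scd1 and Elovl6 lie to its left.

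Over the 10 genes, 0 passed the limma threshold in either direction, against a background of 0.0611% of all genes called lower and 0.0102% called higher. At an unadjusted p under 0.05 limma gave 1 of the 10, Scd1, on the lower side, where the background was 3.25% of all genes (4.5% on the higher side). No count test was run. Both KO libraries lay below both WT libraries for 2 of the 10, Scd1 and Fads2, against 16.4% of all genes. Both lay above for 2 of the 10, Elovl1 and Elovl2, against 22.4% of all genes. These shares are near the background. With 2 libraries against 2, an exact two-sided permutation test cannot give a p below 0.333, so none was used for a single gene.

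Among the saturated and monounsaturated enzymes 4 of 5 log2 differences were negative, with a median of −0.14 and a span from −1.09 to 0.37. Among the polyunsaturated enzymes 2 of 4 were negative, with a median of −0.07 and a span from −0.25 to 0.03. Over all 9820 genes tested 45.4% were negative, and the median was 0.02. The first class thus spread widely and the second narrowly, while their medians differed by only −0.08. That difference between medians was −0.41 without KO replicate 1 and turned to 0.12 without KO replicate 2. Relative to the WT mean, the median of the saturated and monounsaturated class was 0.16 and −0.16 in the WT libraries, 0.14 in KO replicate 1 and −0.57 in KO replicate 2. The same median of the polyunsaturated class was 0.06 and −0.06 in WT, 0.02 in KO replicate 1 and −0.16 in KO replicate 2. By class medians KO replicate 1 lay within the range of the WT libraries, and KO replicate 2 was lowest in both classes.

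**Figure D3:**
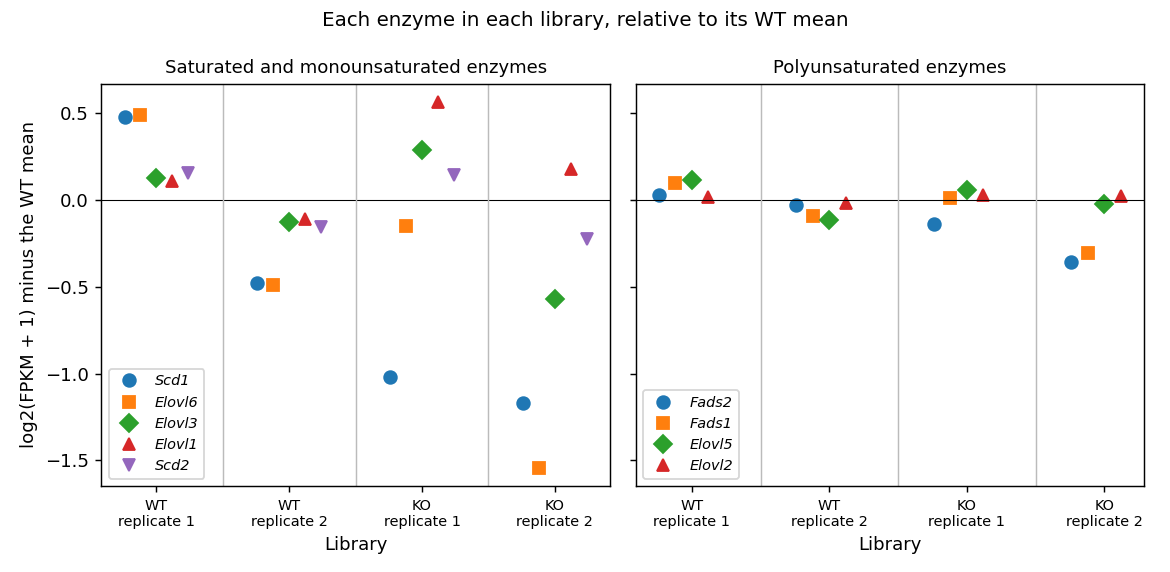
Each enzyme's log2(FPKM + 1) minus its WT mean in each library, saturated and monounsaturated enzymes on the left and polyunsaturated enzymes on the right, with 1 marker shape per gene. Scd1 alone is at about −1 in both KO libraries (−1.02 and −1.17), Elovl6 reaches −1.54 only in KO replicate 2, and the polyunsaturated enzymes stay between −0.36 and 0.12.

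Ratios within a library do not depend on how libraries were scaled to each other. The ratio of Scd1 to Fads2 was 2.64 and 1.41 in WT against 1.04 and 1.10 in KO. Both KO ratios were below both WT ratios, at means of 2.03 ± 0.872 in WT and 1.07 ± 0.0396 in KO (SD, n = 2 each). The ratio of Scd1 to Fads1 was 3.46 and 2.03 in WT against 1.29 and 1.45 in KO, also without overlap. The ratio of Elovl6 to Elovl5 was 0.436 and 0.253 in WT against 0.287 and 0.107 in KO, and these groups overlapped. The ratio of Elovl2 to Elovl5 was 1.00 and 1.15 in WT against 1.06 and 1.11 in KO, with the KO values between the WT values. Scd1 and Elovl6, consecutive in the route from palmitate to oleate, kept a ratio of 8.17 and 8.49 in WT but had 4.55 and 11.6 in KO. The KO libraries thus differed from each other in this ratio on either side of WT.

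**Figure D4:**
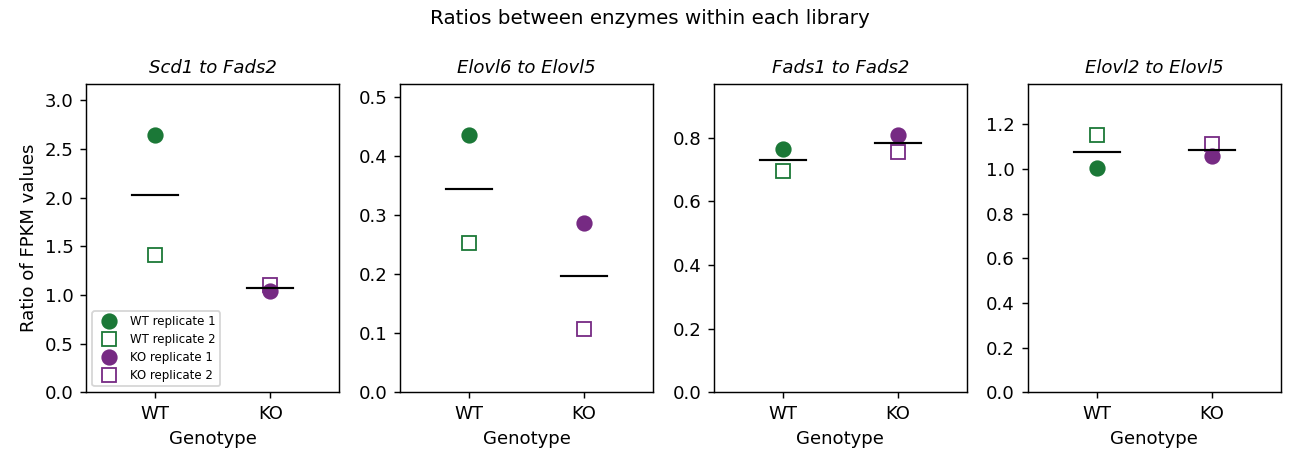
Ratios of FPKM values between enzymes within each library, with 1 point per library (green WT, purple KO, filled circle replicate 1, open square replicate 2) and a bar at each group mean, on axes that start at 0. The ratio of Scd1 to Fads2 is near 1.07 in both KO libraries and below both WT values, while Fads1 to Fads2 and Elovl2 to Elovl5 overlap between genotypes.

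The 5 saturated and monounsaturated enzymes summed to 725 and 500.5 FPKM in WT and to 576 and 356 FPKM in KO, with the groups overlapping. The 4 polyunsaturated enzymes summed to 357 and 329 FPKM in WT against 338 and 303 FPKM in KO, again with overlap. Scd1 made up 26.8% and 18.0% of the FPKM of all 10 genes in WT and 11.2% and 14.0% in KO, without overlap. Elovl3 made up 34.5% and 37.6% in WT and 45.5% and 34.8% in KO.

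By mean WT level the order was Elovl3, Scd1, Fads2, Elovl2, Fads1, Elovl5, Elovl6, Elovl1, Scd2 and Fads3. In WT the ranges of neighbours overlapped for Elovl2 with Fads1, Fads1 with Elovl5, and Elovl6 with Elovl1, and the other neighbours were apart. In KO, Scd1 and Fads2 were no longer apart, Scd2 overlapped Fads3, and Elovl2 and Fads1 were apart. The order of Elovl6 and Elovl1 was reversed in KO without overlap. Elovl1 had 32.95 and 24.99 FPKM there, against 22.45 and 7.94 FPKM for Elovl6. The order of Elovl3 over Scd1 and the wide step from Elovl1 down to Scd2 held in both genotypes.

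The libraries of each genotype also differed from each other in 1 direction. WT replicate 1 was above WT replicate 2 for 9 of the 10 genes, against 59.6% of all genes tested, and KO replicate 1 was above KO replicate 2 for 10 of 10, against 49.5%. KO replicate 2 was the lowest library for 7 of the 10, against 26.8% of all genes. It was also the library with the highest acute phase sum, and the part of that in the values here was not tested. Omission of KO replicate 2 moved the Scd1 difference from −1.09 to −1.02, and omission of KO replicate 1 moved it to −1.17. Its size depended more on the WT libraries. Only −0.61 remained once WT replicate 1 was dropped, whereas dropping WT replicate 2 enlarged it to −1.57.

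Other members of the families were mostly at low levels. Scd3, a desaturase copy best known from skin, had 1.55 and 0.77 FPKM in WT against 0.57 and 0.46 FPKM in KO and, with a mean under 1 FPKM, was not tested. Its values ran parallel to those of Scd1: the ratio of Scd1 to Scd3 was 187 and 194 in WT against 179 and 200.4 in KO. The ratio of Scd1 to Scd2 was not steady in this way, at 185 and 139 in WT against 65.9 and 94.5 in KO. The part of fragments from the shared coding stretches in the Scd3 values was not tested. Scd4, the heart form, had 0.11 and 0.07 FPKM in WT against 0.07 and 0.02 FPKM in KO. Elovl4, the elongase of retina and skin, was listed at 0, Elovl7 stayed between 0.05 and 0.08 FPKM, and Degs2, which hydroxylates ceramide precursors, between 0.12 and 0.27 FPKM. Of the 2 that were tested, Fads6 had 22.2 and 19.4 FPKM in WT against 16.9 and 20.5 FPKM in KO, and Degs1, the ceramide-forming desaturase, had 32.0 and 35.2 FPKM in WT against 35.7 and 31.2 FPKM in KO. Both overlapped between the genotypes.

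Elongation takes 3 further enzymes after the elongase, and their genes stayed near the WT level: 0 of the 5 tested passed, with a median log2 difference of −0.01. Hsd17b12, the ketoacyl-CoA reductase, had 125 and 109 FPKM in WT against 124 and 109 FPKM in KO. Among the dehydratases, Hacd3 had 63.5 and 59.1 FPKM in WT against 59.3 and 59.5 FPKM in KO, Hacd2 18.8 and 17.5 in WT against 19.6 and 15.5 in KO, and Hacd1 8.45 and 8.38 in WT against 8.95 and 8.22 in KO. Hacd4 stayed between 0.09 and 0.42 FPKM and was not tested. Tecr, the enoyl-CoA reductase that ends the cycle, had 114 and 114 FPKM in WT against 122 and 118 FPKM in KO (log2 difference 0.07, limma adjusted p = 0.906). None of the 5 genes tested differed by more than 0.07 log2 units in either direction.

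Desaturases draw electrons from cytochrome b5 and its reductase. Of these genes 0 of 5 tested passed, with a median of −0.22. Cyb5a, the main liver cytochrome b5, had 1696 and 1840 FPKM in WT against 2312 and 1795 FPKM in KO, with overlap. Cyb5b, the form of the outer mitochondrial membrane, had 146 and 127 in WT against 141 and 93.4 in KO. The reductase Cyb5r3 had 207 and 186 FPKM in WT against 176 and 162 FPKM in KO, and Cyb5r1 had 4.21 and 3.56 in WT against 3.12 and 3.06 in KO. Both KO libraries were below both WT libraries for Cyb5r3 and Cyb5r1 (limma adjusted p = 0.729 and 0.650), a pattern found for 16.4% of all genes. The reductase Cyb5r4 went the other way, with 11.5 and 10.7 FPKM in WT against 11.7 and 12.4 FPKM in KO. Both of its KO libraries were above both WT libraries, a pattern found for 22.4% of all genes.

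Of 6 genes listed for substrate supply 0 passed, and 6 of 6 had a negative log2 difference, against 45.4% of all genes. Their median was −0.62. Besides genes that make or remove malonyl-CoA, palmitate and their precursors, the list held Me1, the malic enzyme gene, at −0.48 with overlapping groups. Fasn, the fatty acid synthase gene, had 136 and 72.0 FPKM in WT against 67.2 and 22.4 in KO (log2 difference −1.32, limma adjusted p = 0.635). Acaca, the cytosolic acetyl-CoA carboxylase gene, differed by −0.76 and Acly, which makes cytosolic acetyl-CoA, by −0.45 (limma adjusted p = 0.644 for each). Mlycd, which breaks malonyl-CoA down, differed by −0.06 with overlapping groups. Acacb had 12.2 and 8.72 FPKM in WT against 2.47 and 1.93 in KO, a log2 difference of −1.83 (limma adjusted p = 0.0544). Of the peroxisomal genes that finish docosahexaenoate or oxidise very long chains 0 of 7 passed, with a median of 0.00. Acaa1a, a peroxisomal thiolase, had 158 and 170 FPKM in WT against 191 and 189 in KO, and its copy Acaa1b 345 and 332 in WT against 403 and 381 in KO. These near-identical copies may share fragments. Scp2 had 1814 and 1828 in WT against 1694 and 1530 in KO, and Abcd3, a peroxisomal acyl-CoA transporter, 156 and 133 in WT against 135 and 120.4 in KO.

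Of the acyltransferases that place polyunsaturated chains into phospholipids, 0 of 5 tested passed, with a median of 0.01. Lpcat3, which prefers arachidonate and linoleate, had 33.3 and 31.3 FPKM in WT against 26.2 and 20.4 FPKM in KO, both below WT (log2 difference −0.46, interval from −0.81 to −0.11, limma adjusted p = 0.527). Mboat7, which adds arachidonate to phosphatidylinositol, had 9.71 and 9.24 in WT against 10.6 and 9.73 in KO. Agpat3 had 58.7 and 65.5 in WT against 69.2 and 58.8 in KO, and Agpat2 had 180.0 and 165 in WT against 183 and 155 in KO.

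Among 14 transcription factors and SREBP processing genes 1 passed, Srebf1 itself. Srebf2, whose product SREBP2 drives cholesterol synthesis, had 13.9 and 14.3 FPKM in WT against 24.2 and 19.7 FPKM in KO (log2 difference 0.59, limma adjusted p = 0.324). Nr1h2, which encodes the oxysterol receptor LXR beta, had 13.8 and 13.7 in WT against 16.0 and 16.9 in KO, and Hnf4a, a hepatocyte identity factor, had 120.4 and 106 in WT against 121 and 142 in KO.

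The genes nearest to Scd1 over the 4 libraries, by root mean square distance of centred log2(FPKM + 1) values among 4155 genes with a mean of at least 10 FPKM, were Pklr, Osgin1, Gpam, Tkfc and Acaca, at distances of 0.13 to 0.24 log2 units. Pklr, which encodes the pyruvate kinase of hepatocytes, had 95.4 and 53.7 FPKM in WT against 38.8 and 27.4 in KO. Tkfc, which phosphorylates glyceraldehyde in fructose breakdown, had 382 and 238 FPKM in WT against 204 and 139 in KO. None of the other 9 genes was as near to Scd1: Elovl6 came closest, at 0.46. The genes nearest to Fads1 were Ndufa12, Tomm5, Oxnad1, Rpl34 and Ergic1, at 0.01 to 0.02 log2 units. Scd2 and Fads2 followed among the 10 genes at 0.07 and 0.08. Scd2, at 0.98 to 1.57 FPKM, was below the minimum mean of 10 FPKM, and log2(FPKM + 1) understates its changes. Replicate 1 over replicate 2 was 1.47 in WT and 1.59 in KO for Scd2, against 1.14 and 1.25 for Fads1. Values over 4 libraries fix such a neighbourhood only loosely.

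Markers of other cell types gave the following sums of FPKM. Kupffer cell and macrophage markers, with 8 of 8 tested, summed to 92.3 and 74.0 in WT against 70.5 and 124 in KO. Stellate cell markers, 7 of 7 tested, ranged from 47.7 to 53.0 over the 4 libraries, without a split by genotype. Endothelial markers, 6 of 6 tested, summed to 50.2 and 52.8 in WT against 55.6 and 66.8 in KO. Both KO sums lay above both WT sums, with most of each sum from Clec4g. Clec4g had 29.5 and 32.1 FPKM in WT against 36.0 and 41.3 FPKM in KO. Of the 6 endothelial markers, 4 had a positive and 2 a negative log2 difference. Cholangiocyte markers, 3 of 5 tested, summed to 25.4 and 23.5 in WT against 50.2 and 41.7 in KO, mostly through Spp1. Of the 3 tested, 2 had a positive and 1 a negative log2 difference. The negative one was Sox9, with 2.20 and 1.44 FPKM in WT against 1.18 and 2.09 FPKM in KO. Leukocyte markers, 2 of 6 tested, summed to 11.1 and 13.0 in WT against 8.21 and 26.6 in KO. Adipocyte markers, 3 of 6 tested, summed to 26.5 and 16.8 in WT against 34.7 and 60.8 in KO, and the 3 tested were positive. Cfd had 0.44 and 0.12 FPKM in WT against 3.83 and 32.1 in KO (log2 difference 3.32, limma adjusted p = 0.406), and Cidec had 3.09 and 2.23 in WT against 8.41 and 6.75 in KO (1.23, 0.135). Fabp4 had 22.9 and 14.3 in WT against 22.4 and 21.8 in KO. Adipoq and Plin1 stayed at or below 0.17 FPKM, and Lep was listed at 0. Their part in the differences of the desaturases and elongases was not tested.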

How the data were processed

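The authors deposited FPKM values in 1 table, with a row for each RefSeq transcript and a column for each library, per the file headers. The mm10 build and the aligners Bowtie and TopHat are named, with no version, in the submitters' processing notes. How FPKM was computed, on which annotation and with which strand setting, is not given in the sources used here. Groups and replicate numbers came from the sample titles. Nothing says that the samples came from separate animals, so the p-values cover the spread among 4 samples that may in part be technical replicates.

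Rows were summed per gene number (5009 genes had several). In all, 8874 transcripts, that of Alb included, had 0 in every library, so a 0 was read only as listed at 0. Gene numbers of 23847 genes matched a RefSeq table of GRCm38.p6, which gave positions. Between 48.5% and 51.4% of low FPKM values came out as whole fragments to within 0.1, too few for a count test. The test was that of limma 3.58.1 under R 4.3.3 (intensity trend, Benjamini-Hochberg adjustment, threshold 0.05) on log2(FPKM + 1) for genes with a mean of at least 1 FPKM. It was tested on simulated data built on the 9820 gene means, with 200 changed genes in each of 10 runs. Of genes shifted by 1 log2 unit 83.5% were called, and of those shifted by 2 units 99.5%. Of the calls, 5.5% fell on genes left as they were. The simulated data followed the model of the test. The fit of the real data called only 6 genes lower and 1 higher, so these shares do not give the power in the real data.

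The 10 members, the lists, the tests and the alternatives were chosen with earlier results of these data known. The text names the 10 members, Srebf1, all genes of the lists of other family members and elongation steps, up to 4 genes with the smallest p of each other pathway list, and the 5 genes nearest to Scd1 and to Fads1. Mlycd, Me1, Cyb5r4 and single marker genes fall outside this rule and were named after their values were seen. From the acute phase list and a list of fasting-induced genes only sums and counts are given. The fasting-induced genes summed to 3919 and 4152 FPKM in WT against 3802 and 4000.0 in KO. Of them 0 of 8 passed the threshold, as did 0 of 15 acute phase genes. Tables, sequences and figures were made with python 3.11.15, pandas 2.3.3, biopython 1.88 and matplotlib 3.10.9.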

Additional observations from a re-analysis of the deposited data

How the results depend on the processing

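None of the 10 genes passed under the main settings, and the alternatives were other pseudocounts, filters, scalings, variance priors, transcript rows, the replicate block and each library left out. The direction of Scd1, Elovl1, Elovl6 and Fads2 held under all of these. Of the 10 genes Elovl6 was the only one past the threshold under any, without KO replicate 1. A fit without 1 library leaves a group with a single library, which is assumed to vary like the 2 of the other group. With 1 library left out the log2 difference ran from −1.57 to −0.61 for Scd1, −1.54 to −0.15 for Elovl6, −0.57 to 0.29 for Elovl3, 0.18 to 0.56 for Elovl1, −0.22 to 0.14 for Scd2, −0.36 to −0.14 for Fads2, −0.305 to 0.011 for Fads1, −0.10 to 0.13 for Elovl5, 0.01 to 0.04 for Elovl2 and −0.060 to 0.54 for Fads3. Upper-quartile scaling turned Elovl2 to 0.00 and Elovl5 to −0.011.

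With 1 library left out the median of the saturated and monounsaturated enzymes ran from −0.57 to 0.14, that of the polyunsaturated enzymes from −0.171 to 0.019, and the difference between them from −0.41 to 0.12. That difference was −0.43 with a minimum of 5 FPKM, where Scd2 is not tested.

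The fit called 6 genes lower and 1 higher in KO. The lower and higher counts were 0 and 0 without a filter, 3 and 0 with a minimum of 5 FPKM, 10 and 5 with a robust prior, and 1 to 137 and 0 to 169 with 1 library left out. The lower count was 10 with a pseudocount of 0.1. The higher count was 0 with upper-quartile scaling, with quantile scaling, without the trend and with transcript rows. With the replicate number as a block 15 genes were lower and 4 higher, and the limma adjusted p of Scd1 was 0.162. Deviations of the libraries numbered 1 had a correlation of 0.17 over genes, and with 2 numbers this does not show that the numbers pair the samples. The cause of these changes was not tested.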
